A study of Homo sapiens with 6 samples.

Results

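Cyclins are the regulatory subunits that switch on the cyclin-dependent kinases (CDKs), and their rise and destruction in turn drive the cell cycle. D-type cyclins with CDK4 and CDK6 start the phosphorylation of the retinoblastoma protein in G1 phase, E-type cyclins with CDK2 act at the entry into S phase, cyclin A acts in S and G2 phases, and B-type cyclins with CDK1 drive mitosis. Cyclin F binds no CDK and is instead the substrate receptor of an SCF ubiquitin ligase. FOXM1, a forkhead factor, is known to activate mitotic genes, among them those of the B-type cyclins, in G2 phase. Described here are 9 cyclin genes, CCNA2, CCNB1, CCNB2, CCND1, CCND2, CCND3, CCNE1, CCNE2 and CCNF, found by their symbols among the 13008 genes of the authors' deposited comparison table and by gene ID among 13161 genes with normalised counts. They were picked because of how CCNE1 and CCNE2, and CCNB2 and other mitotic genes, had moved between the same groups. Their differences between dox and no dox are therefore given as a description, with no test. All 9 passed the filter on low values, which kept 13153 genes.

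The cells were hTERT-RPE1, a human retinal pigment epithelial line immortalised with telomerase, in a stable line (Tet-FLAG-FOXM1c-hTERT-RPE1) carrying FLAG-tagged FOXM1c under a tetracycline-inducible promoter. The 3 dox libraries came from cells labelled with the genotype FOXM1 overexpression and treated with doxycycline at 1 µg/mL, given every 24 h over 48 h. The 3 no dox libraries came from cells under the same line name, with the genotype label WT and the treatment label none. Doxycycline in cells that lack the transgene was not analysed here, so the drug and the induced FOXM1 cannot be told apart. No source used here says whether the line is a single clone. Separate cultures are not stated for the replicates, and the spread between libraries may therefore be technical.

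Library totals recovered from the deposited CPM lay between 25148936 and 49882123 reads in dox and between 15094498 and 32280300 in no dox. FOXM1 had 65289, 66830 and 74976 normalised counts in dox replicates 1, 2 and 3, against 5009, 4383 and 4292 in no dox replicates 1, 2 and 3, so the induced gene matches the labels in every library. Of 6 epithelial markers, KRT8 (20.0 to 33.4 FPKM over all libraries), KRT18 (34.6 to 65.2 FPKM) and CLDN1 (2.12 to 4.37 FPKM) reached 1 FPKM. EPCAM was listed at 0, CDH1 did not exceed 0.0106 FPKM and KRT19 did not exceed 0.0690 FPKM. The 6 summed to between 71.8 and 102 FPKM in dox and between 56.8 and 80.0 FPKM in no dox. Of 7 retinal pigment epithelium markers, MITF (2.06 to 2.23 FPKM over all libraries) and OTX2 (1.91 to 3.14 FPKM) reached 1 FPKM, and RPE65 did not exceed 0.220 FPKM. The 6 mesenchymal markers summed to between 422 and 519 FPKM in dox and between 433 and 531 FPKM in no dox. Of these, VIM alone had 254 to 382 FPKM in dox and 273 to 396 FPKM in no dox, while COL1A2 did not exceed 0.0254 FPKM. The 3 leukocyte markers summed to at most 0.0575 FPKM in any library. Libraries with equal replicate numbers deviated together from their group means (correlations across genes of 0.745, 0.726 and 0.768), so equal numbers are treated as pairs below. Every SE below comes instead from the limma fit that ignores the pairs, so it includes the spread between replicate numbers. With the replicate number as a block in the fit, the SE was 0.10 rather than 0.26 for CCNE1. For CCND2 it was 0.12 rather than 0.68.

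The promoters of the cyclins that set the pattern are shown first, because CCNB1 and CCNB2 encode close relatives that differed in their change, CCNE1 was the E-type cyclin that lay higher in dox, and CCNF had the lowest log2 change of the 9. RefSeq promoters on GRCh38.p14 were found for 6 of the 9 genes, and CCND1, CCND2 and CCNE2 are named only. Each line gives the 250 bases before the start site, 5′ to 3′, and capitals mark the motifs searched on both strands. These are the CHR element of late cell cycle genes (TTNGAA with T or C at N), the CCAAT box, the E2F letters TTNNCGC with C or G at each N, the forkhead core TAAACA and the SP1 box GGGCGG. Where motifs overlap, the capitals run together, as in CCNB2.
CCNB1 (chr5:69166900-69167149, plus strand): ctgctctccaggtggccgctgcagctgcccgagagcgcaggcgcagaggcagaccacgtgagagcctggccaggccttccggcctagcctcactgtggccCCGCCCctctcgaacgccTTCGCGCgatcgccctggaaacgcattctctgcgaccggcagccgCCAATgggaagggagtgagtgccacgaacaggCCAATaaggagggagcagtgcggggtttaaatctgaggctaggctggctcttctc
CCNB2 (chr15:59104896-59105145, plus strand): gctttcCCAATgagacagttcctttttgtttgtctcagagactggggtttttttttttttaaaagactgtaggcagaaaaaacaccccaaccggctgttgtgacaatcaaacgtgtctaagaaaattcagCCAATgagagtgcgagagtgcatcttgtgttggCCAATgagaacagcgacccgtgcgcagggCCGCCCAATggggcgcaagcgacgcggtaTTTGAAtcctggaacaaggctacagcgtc
CCNE1 (chr19:29811741-29811990, plus strand): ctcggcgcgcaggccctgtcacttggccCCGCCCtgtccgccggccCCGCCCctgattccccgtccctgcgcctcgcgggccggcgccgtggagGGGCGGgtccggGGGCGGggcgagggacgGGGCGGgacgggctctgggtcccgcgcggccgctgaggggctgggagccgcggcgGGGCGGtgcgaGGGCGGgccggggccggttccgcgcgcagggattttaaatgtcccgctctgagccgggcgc
CCNF (chr16:2429197-2429446, plus strand): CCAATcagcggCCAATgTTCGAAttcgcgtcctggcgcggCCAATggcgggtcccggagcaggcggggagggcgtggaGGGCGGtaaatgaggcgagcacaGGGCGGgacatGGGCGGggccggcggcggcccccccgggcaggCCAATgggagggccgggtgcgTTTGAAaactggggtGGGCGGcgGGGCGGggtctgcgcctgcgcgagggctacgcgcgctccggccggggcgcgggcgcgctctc

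The search covered 300 bases, which add the first 50 bases after the start site. CCNB2 held 1 CHR match, its first base 29 bases before the start site, and 4 CCAAT boxes, at 244, 120, 87 and 54 bases before it. CCNB1 held no CHR match by these letters, 2 CCAAT boxes at 87 and 55 bases before the start site and 1 E2F match at 132 bases before it. CCNF held 2 CHR matches, TTCGAA at 233 and TTTGAA at 85 bases before the start site, 4 CCAAT boxes and 5 SP1 boxes. CCNE1 held 7 SP1 boxes and none of the other letters, and CCNB1 and CCNB2 held 1 SP1 box each. CCNA2, not printed, held 1 CCAAT box and 3 SP1 boxes. Among the 3 CCND3 promoters in the table, only the farthest upstream held the forkhead core. Over all 35116 promoters of this length, 16.4% held a CHR match, 34.6% a CCAAT box, 13% an E2F match, 12.3% the forkhead core and 45% an SP1 box. A match is a string of letters and not a binding site. Only these exact letters were searched, so a gene listed without a match may hold a site with other letters.

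The E-type cyclins moved in opposite directions. CCNE1, on chromosome 19 from 30302805 to 30315215 of hg19, had 271, 158 and 178 normalised counts in dox replicates 1, 2 and 3, against 168, 100.4 and 112 in no dox replicates 1, 2 and 3. Each dox library lay above its no dox partner of the same number, although the groups overlap because no dox replicate 1 exceeds dox replicate 2. The mean was 202 ± 60.2 in dox and 127 ± 36.5 in no dox (SD, n = 3 each), a log2 difference of 0.66 (SE 0.26), which is 1.59-fold. It was 0.44 without dox replicate 1, which breaks a pair, and 0.66 without replicate 1 of both groups. Within the pairs the log2 difference was 0.68, 0.65 and 0.66, an SD of 0.016. CCNE1 rests on few reads, between 54 and 380 per library, so this small SD over 3 pairs does not measure precision.

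CCNE2, on chromosome 8 from 95891998 to 95908906, had 236, 181 and 207 normalised counts in dox replicates 1, 2 and 3, against 369, 336 and 315 in no dox replicates 1, 2 and 3. All dox libraries lay below all no dox libraries. The mean was 208 ± 27.5 in dox and 340 ± 27.3 in no dox (SD, n = 3 each), a log2 difference of -0.71 (SE 0.13), with pairs at -0.64, -0.89 and -0.60. The change of CCNE2 minus that of CCNE1 was -1.38 on the log2 scale (pairs -1.32, -1.54 and -1.26). The FPKM level of CCNE2, per length, was 0.775, 1.02 and 1.01 times that of CCNE1 in dox replicates 1, 2 and 3, against 1.90, 2.89 and 2.54 times in no dox replicates 1, 2 and 3. Per kilobase of the longest coding transcript it was 0.547, 0.717 and 0.710 times in dox replicates 1, 2 and 3, against 1.34, 2.04 and 1.80 times in no dox replicates 1, 2 and 3. Both genes feed the same kinase, CDK2. Their summed level was 1.77, 1.255 and 1.33 FPKM in dox replicates 1, 2 and 3, against 1.81, 1.51 and 1.39 FPKM in no dox replicates 1, 2 and 3, lower in dox in each pair although the groups overlap. Per transcript length the sum was higher in dox in pairs 1 and 3 and lower in pair 2. The opposite-strand genes INTS8 and NDUFAF6 share 1977 and 912 bases with CCNE2 on hg19, and without a stated use of strand their reads cannot be told apart there. INTS8 differed by 0.11 (SE 0.08) and NDUFAF6 by -0.09 (SE 0.10) on the log2 scale.

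**Figure D1:**
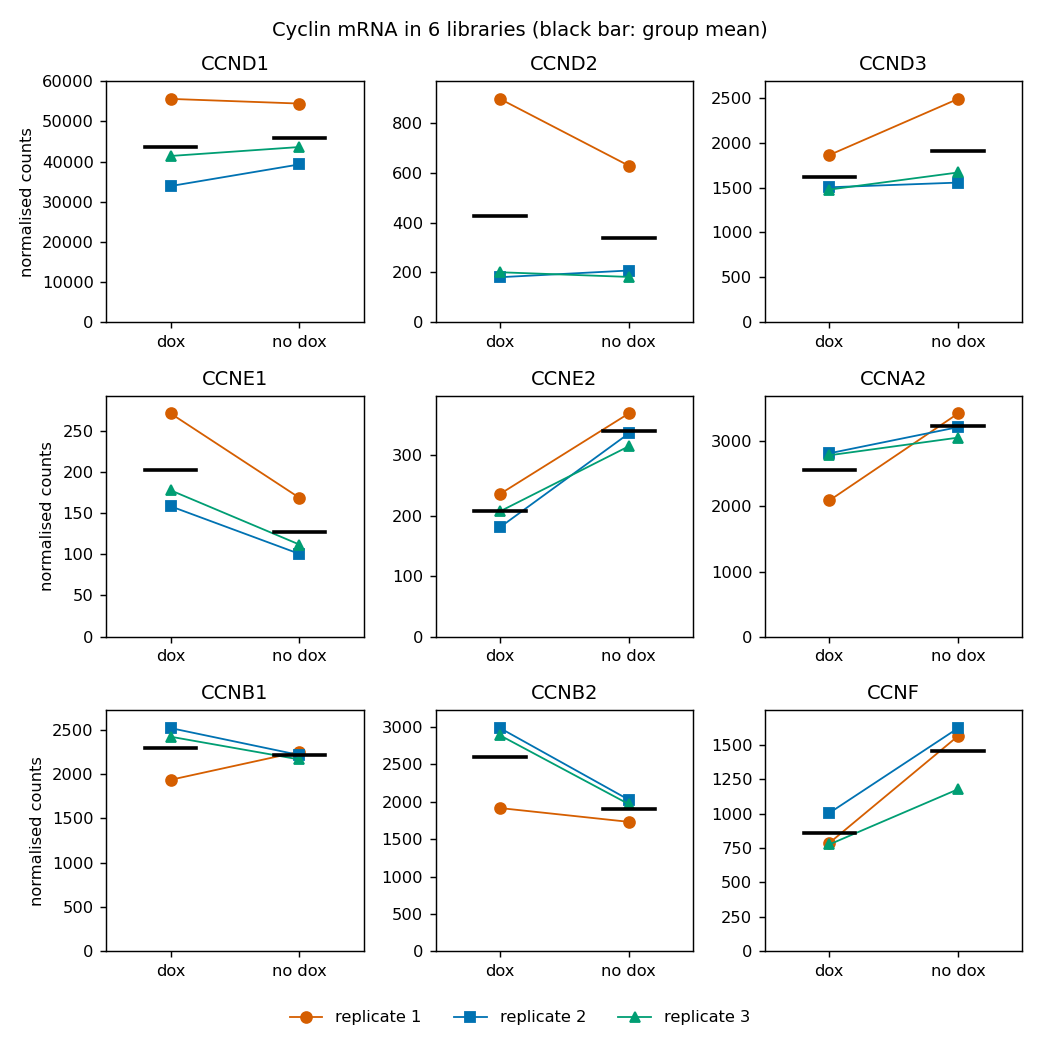
Normalised counts (vertical axes, starting at 0) of the 9 cyclins in dox and no dox libraries, with lines joining libraries of the same replicate number and black bars at the group means. CCNE1 lines all run higher on the dox side and CCNE2, CCNA2 and CCNF lines lower, while CCND2 is near 200 in 4 libraries and at 897 and 629 in dox and no dox replicate 1.

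The B-type cyclins did not move alike either. CCNB2, on chromosome 15 from 59397277 to 59417244, had 1916, 2986 and 2889 normalised counts in dox replicates 1, 2 and 3, against 1732, 2028 and 1969 in no dox replicates 1, 2 and 3. All pairs were higher in dox, but dox replicate 1 lay within the no dox range. The log2 difference was 0.42 (SE 0.17), or 1.34-fold, with pairs at 0.15, 0.56 and 0.55. CCNB1, the other mitotic partner of CDK1, on chromosome 5 from 68462837 to 68474072, had 1935, 2518 and 2420.4 normalised counts in dox replicates 1, 2 and 3, against 2252, 2214 and 2164 in no dox replicates 1, 2 and 3. Its pairs differed in sign, at -0.22, 0.19 and 0.16, and the mean log2 difference was 0.04 (SE 0.11). It was 0.16 without dox replicate 1, -0.030 without dox replicate 2 and -0.0017 without dox replicate 3. The no dox libraries were close together, so the spread of CCNB1 lies mostly in dox, where replicate 1 was the lowest. The change of CCNB2 minus that of CCNB1 was 0.38, and here the pairs were nearly equal, at 0.37, 0.37 and 0.39. Per length, CCNB2 stood at 1.90, 2.27 and 2.29 times the FPKM of CCNB1 in dox replicates 1, 2 and 3, against 1.48, 1.76 and 1.75 times in no dox replicates 1, 2 and 3. These ratios use the deposited gene widths. Per kilobase of the longest coding transcript CCNB2 stood at 0.858, 1.03 and 1.03 times CCNB1 in dox replicates 1, 2 and 3. In no dox replicates 1, 2 and 3 it stood at 0.666, 0.794 and 0.788 times. CCNB2 was thus higher by both lengths in dox replicates 2 and 3, though barely so by transcript length. In dox replicate 1 and the no dox libraries, which gene is higher depends on the length used.

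CCNA2, the S and G2 phase cyclin on chromosome 4 from 122737599 to 122745087, had 2091, 2816 and 2785 normalised counts in dox replicates 1, 2 and 3, against 3427, 3217 and 3056 in no dox replicates 1, 2 and 3. The groups do not overlap, and pair 1 differed most, with log2 differences of -0.71, -0.19 and -0.13 in pairs 1, 2 and 3. The mean difference of -0.35 (SE 0.12) was -0.21 without dox replicate 1 and -0.16 without replicate 1 of both groups. The opposite-strand gene EXOSC9, which shares 578 bases with CCNA2, differed by -0.36 (SE 0.13), with pairs at -0.58, -0.24 and -0.25. The part of that overlap in the CCNA2 values was not tested.

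CCNF, on chromosome 16 from 2479395 to 2508855, had 786, 1004 and 776 normalised counts in dox replicates 1, 2 and 3, against 1563, 1620.2 and 1176 in no dox replicates 1, 2 and 3. The groups were apart, and the mean was 855 ± 129 in dox and 1453 ± 241 in no dox (SD, n = 3 each). The log2 difference of -0.76 (SE 0.15) had pairs at -0.99, -0.69 and -0.60. In bulk RNA, a smaller share of cells in the phases that express a cyclin and less RNA per cell cannot be told apart.

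The D-type cyclins, which respond to growth signals, overlapped between dox and no dox in each case. CCND1, on chromosome 11 from 69455855 to 69469242, had 55599, 33891 and 41382 normalised counts in dox replicates 1, 2 and 3, against 54436, 39285 and 43611 in no dox replicates 1, 2 and 3. The log2 difference was -0.09 (SE 0.20), with pairs at 0.03, -0.21 and -0.08. It was 0.081 without dox replicate 2, 0.046 without no dox replicate 1 and -0.28 without dox replicate 1. Without replicate 1 of both groups it was -0.14. Its last 1399 bases also lie in the opposite-strand gene ORAOV1, which differed by 0.03 (SE 0.13). CCND3, on chromosome 6 from 41902671 to 42018095, had 1864, 1505 and 1479 normalised counts in dox replicates 1, 2 and 3, against 2491, 1557 and 1669.5 in no dox replicates 1, 2 and 3. All pairs were lower in dox, at -0.42, -0.05 and -0.17, with a mean of -0.21 (SE 0.18). Without no dox replicate 1 the difference was -0.0050, and without no dox replicate 2 it was -0.34. With replicate 1 of both groups left out it was -0.11. CCND2, on chromosome 12 from 4382938 to 4414516, had 897, 181 and 200.5 normalised counts in dox replicates 1, 2 and 3, against 629, 207 and 182 in no dox replicates 1, 2 and 3. Its pairs differed in sign (0.51, -0.20 and 0.14), and the log2 difference of 0.15 (SE 0.68) was -0.59 without dox replicate 1, -0.03 without replicate 1 of both groups and 0.71 without no dox replicate 1.

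**Figure D2:**
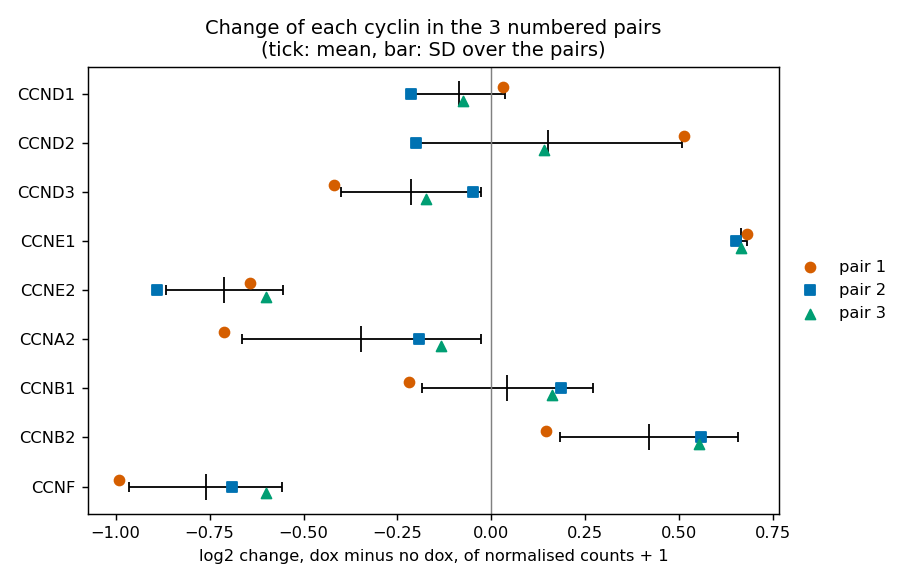
Log2 change, dox minus no dox, of each cyclin within the 3 numbered pairs (coloured points), with the mean (tick) and the SD over the pairs (bar). The CCNE1 points lie together between 0.65 and 0.68, a closeness that rests on few reads. The CCNE2 and CCNF points all lie below 0, and the points of CCNB1, CCND1 and CCND2 fall on both sides of 0.

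By counts, 0 of the 9 cyclins were called by limma at an adjusted p under 0.05 without the replicate block, where 0.540% of 13153 genes were called. With the block, 2 were called higher (CCNB2 and CCNE1) and 4 lower (CCNA2, CCND3, CCNE2 and CCNF), against 10.2% of all genes called higher and 12.4% called lower (22.5% in either direction). On the recovered reads edgeR called none of the 9, with 0.515% of genes called (0.323% higher and 0.192% lower). DESeq2 called CCNE2 and CCNF, both lower, with 4.01% of genes called (1.68% higher and 2.34% lower). From FPKM none of the 9 was called, with 0.236% of genes called (0.198% higher and 0.0380% lower). The groups did not overlap for 3 cyclins, CCNA2, CCNE2 and CCNF, all lower in dox, while 19.1% of all genes were apart in either direction. All 3 pairs were higher for 2 cyclins and lower for 4, against 26.5% and 28.5% of all genes. CCNE2 and CCNF had an adjusted p under 0.05 in the authors' deposited table, as had 2.78% of its genes. Of the 9, 1 (CCNF) carried the lower flag of the authors' deposited table and 0 the higher flag, against 0.815% and 0.746% of its genes. Since the 9 were chosen on this comparison, nothing is read from these counts. Their median log2 change was -0.09, against -0.0022 over all tested genes.

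The cyclins were not chosen by their differences between replicate numbers. A test of these differences still shares its libraries and residual spread with the dox comparison, so it is not independent of that choice. An F test of the replicate number in the limma fit with the block, added after the data were seen, called 40.5% of all genes at a Benjamini-Hochberg adjusted p under 0.05. Of the cyclins, 6 of 9 passed, namely CCND1, CCND2, CCND3, CCNE1, CCNB2 and CCNF. The labels do not say what libraries of equal number share. CCND2 differed most among the 9, with replicate 1 above the mean of replicates 2 and 3 by 2.23 in dox and by 1.69 in no dox on the log2 scale (adjusted p = 2.66e-05). CCND1 was likewise higher in replicate 1, by 0.57 in dox and 0.40 in no dox (adjusted p = 0.000520). CCND3 was higher there by 0.32 in dox and 0.63 in no dox (adjusted p = 0.00225), and CCNE1 by 0.69 in dox and 0.66 in no dox (adjusted p = 0.00287). The G1 cyclins with a call were thus highest in replicate 1 of both groups. CCNB2 went the other way, with replicate 1 differing from the others by -0.62 in dox and by -0.21 in no dox. The limma F test, which takes both groups together, gave CCNB2 an adjusted p of 0.00863. For CCNF, replicate 1 differed from the others by -0.17 in dox and 0.18 in no dox, and the test gave an adjusted p of 0.0141 (limma). CCNF replicate 2 differed from the others by 0.36 in dox and 0.26 in no dox, and replicate 3 by -0.20 in dox and -0.44 in no dox. CCNE2, CCNB1 and CCNA2 did not pass this test, with adjusted p-values between 0.162 and 0.434.

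Levels per length differed widely among the 9. In FPKM, counted per kilobase of the deposited gene width, CCND1 stood first at 208 ± 48.5 in dox and 215 ± 33.8 in no dox (SD, n = 3 each). By the deposited widths it made up between 97.5% and 98.4% of the summed D-type FPKM in dox and likewise in no dox libraries. With transcript lengths, as given below, CCND3 stood higher against CCND1, so that share was smaller. CCNA2 followed at 31.9 ± 5.60 in dox and 39.4 ± 2.67 in no dox, and CCNB2 at 23.3 ± 5.67 in dox and 16.8 ± 1.67 in no dox. CCNB1 came next at 10.7 ± 1.67 in dox and 10.1 ± 0.41 in no dox. The libraries of CCNA2 and CCNB2 overlap in level in dox and not in no dox. CCNF averaged 2.48 ± 0.46 in dox and 4.12 ± 0.78 in no dox, next to CCND3 at 2.54 ± 0.32 in dox and 2.94 ± 0.76 in no dox, and these neighbours overlap in both groups. CCND2 had a median of 0.855 in dox and 0.929 in no dox, and overlaps in level with CCND3 and with the next gene below it. CCNE1 averaged 0.760 ± 0.21 and CCNE2 0.690 ± 0.07 in dox, where they overlap. In no dox CCNE1 averaged 0.467 ± 0.13 and CCNE2 1.10 ± 0.10, with every CCNE2 library above every CCNE1 library.

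**Figure D3:**
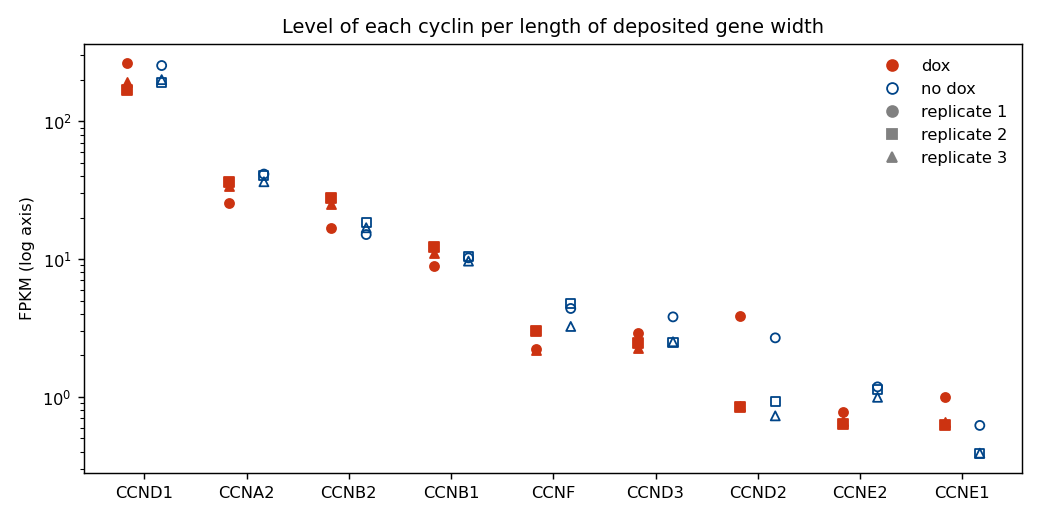
FPKM (log axis) of the 9 cyclins in each library, with dox as filled red and no dox as open blue symbols, and genes ordered by their no dox mean. CCND1 lies near 200 FPKM, and at the right CCNE2 lies at 0.775 to 1.02 times CCNE1 in dox libraries and at 1.90 to 2.89 times in no dox libraries.

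This order depends on the length used. The deposited width of CCND3 is 22078 bases, 9.22 times its longest protein-coding transcript in GENCODE 29, while the width of CCNA2 equals that transcript. With CPM per kilobase of that transcript, CCND3 stood at 23.4 ± 2.91 in dox and 27.1 ± 6.97 in no dox, CCNB1 at 36.8 ± 5.73 in dox and 34.7 ± 1.41 in no dox, and CCNB2 at 36.1 ± 8.79 in dox and 26.0 ± 2.59 in no dox. CCND2 stood at 2.25 ± 2.11 in dox and 1.77 ± 1.31 in no dox, below CCNE1 at 3.40 ± 0.92 in dox and 2.09 ± 0.60 in no dox, though their libraries overlap. CCND1 stayed first, at 351 ± 81.7 in dox and 362 ± 56.9 in no dox. Differences of 1 gene between groups do not depend on its length.

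Genes with the most similar pattern were ranked by the root mean square difference of log2 values, each centred on its own mean over the 6 libraries, among genes at or above the median level (6525 for the E-type and 6524 for the B-type cyclins). For CCNE1 these were BEX1 (0.047), TRIM22 (0.047) and ENC1 (0.11). TRIM22, an interferon-inducible ubiquitin ligase, had 2563, 1517 and 1740.4 normalised counts in dox replicates 1, 2 and 3, against 1721, 925 and 1085 in no dox replicates 1, 2 and 3, again highest in replicate 1 of each group. For CCNE2 they were STAC (0.11), the ETS family factor ETS1 (0.11) and FAM111B (0.12). CCNB1 was nearest to the centromere gene CENPU (0.040), the glyoxalase GLO1 (0.047) and ARHGAP11A (0.048), and CCNB2 to TMEM55B (0.083), the paired-box factor PAX6 (0.089) and TGIF1 (0.093).

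Genes that act with the cyclins were counted in 6 lists of 92 genes in all, 86 of them tested. Without the block 0 rose and 3 fell (CDK2, E2F8 and EXO1), against 0.319% of all genes higher and 0.220% lower. With it 10 rose and 22 fell, against 10.2% of all genes higher and 12.4% lower under that fit. Their median log2 change was -0.05, against -0.0022 over all tested genes. None of the 3 falls passed when any 1 library was left out, or from the FPKM values.

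Among 16 tested cyclins outside the 9, none passed without the block, and 4 rose and 1 fell with it (10.2% and 12.4% of all genes, list median 0.05). CCNG2, a cyclin linked to cell cycle arrest, had 1933, 2089 and 2542 normalised counts in dox replicates 1, 2 and 3, against 1183, 1201 and 1629 in no dox replicates 1, 2 and 3, and the groups are apart. The log2 difference was 0.72 (SE 0.15). Its limma adjusted p was 0.0927 unblocked and 4.38e-05 with the block. CCNG1, a known p53 target, differed by 0.32 (SE 0.08, limma adjusted p = 0.125, and 0.000535 with the block), with pairs at 0.32, 0.33 and 0.32. CCNH, the CDK7 partner, differed by 0.22 (adjusted p = 0.231, and 0.0116 with the block), and CCNY by -0.37 (0.163, and 0.000423 with the block).

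In the list of partner kinases and CDK inhibitors, 1 of 15 fell without the block, and 2 rose and 6 fell with it (10.2% and 12.4% of all genes, list median -0.02). CDK2, the partner of cyclins E and A, fell. It had 966, 1131 and 1095 normalised counts in dox replicates 1, 2 and 3, against 1678, 1656 and 1533 in no dox replicates 1, 2 and 3, which is -0.61 on the log2 scale (SE 0.09, limma adjusted p = 0.0420). The groups were apart by more than the spread within each. CDK1, the mitotic kinase, differed by -0.39 (SE 0.12, limma adjusted p = 0.204, and 0.00241 with the block). The cyclin D partner CDK4 differed by -0.15 (adjusted p = 0.431, and 0.0396 with the block) and CDK6 by 0.03 (0.978, and 0.687 with the block). The inhibitor CDKN1A had a log2 difference of 0.44 (SE 0.31), which passed only with the block (limma adjusted p = 0.639 without and 0.000502 with it). CDKN1A was highest in replicate 1 of both groups, with 21513, 11742 and 13647 normalised counts in dox replicates 1, 2 and 3, against 17551, 8395 and 9315 in no dox replicates 1, 2 and 3. The inhibitor CDKN1B differed by 0.01 (SE 0.11).

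In the list of E2F and RB regulators of the cyclin E and A genes, 1 of 18 fell without the block. With it 2 rose and 5 fell (10.2% and 12.4% of all genes, list median -0.11). The list also holds MYBL2, LIN9, LIN37, LIN52 and LIN54, which belong to neither family. E2F8, a repressor of the E2F family, had 59.1, 67.1 and 61.1 normalised counts in dox replicates 1, 2 and 3, against 170.5, 156 and 131 in no dox replicates 1, 2 and 3. It fell by 1.27 on the log2 scale (SE 0.16, limma adjusted p = 0.0411), with the groups apart. The activator E2F1 differed by -0.56 (SE 0.11, limma adjusted p = 0.0827, and 0.00180 with the block), while E2F7, a second repressor, differed by -0.04 (SE 0.10, adjusted p = 0.908, and 0.560 with the block). Among 12 cyclin F partners and substrates (list median -0.15), E2F8 and EXO1 fell without the block, and 1 rose and 5 fell with it, against 10.2% and 12.4% of all genes. EXO1, a DNA exonuclease, had 383, 466 and 480.1 normalised counts in dox replicates 1, 2 and 3, against 762, 838 and 747 in no dox replicates 1, 2 and 3. It fell by 0.82 on the log2 scale (SE 0.11, limma adjusted p = 0.0411).

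No gene of the cyclin turnover list (19 tested, median -0.04) passed without the block, and 3 fell with it, against 12.4% of all genes. These were SKP2, an SCF receptor with a log2 difference of -0.41 (SE 0.09, limma adjusted p = 0.00377 with the block), the APC/C inhibitor FBXO5 (-0.54, 0.00159) and the APC/C activator CDC20 (-0.34, 0.0342). UBE2S, an APC/C ubiquitin-conjugating enzyme, had 0.26 (0.0690 with the block). FBXW7, the receptor that targets cyclin E, differed by 0.05 (SE 0.10, adjusted p = 0.909). In the cyclin B-CDK1 switch (12 tested, median -0.10) none passed without the block, and 1 rose and 4 fell with it, against 10.2% and 12.4% of all genes. BORA, which activates PLK1 through Aurora A, rose with the block by 0.51 (SE 0.16, limma adjusted p = 0.00581), while PLK1 (-0.52, 0.00873) fell. The kinases PKMYT1, an inhibitor of CDK1, and MASTL differed by -0.88 and -0.66, with adjusted p-values of 0.000561 and 0.000552 with the block.

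**Figure D4:**
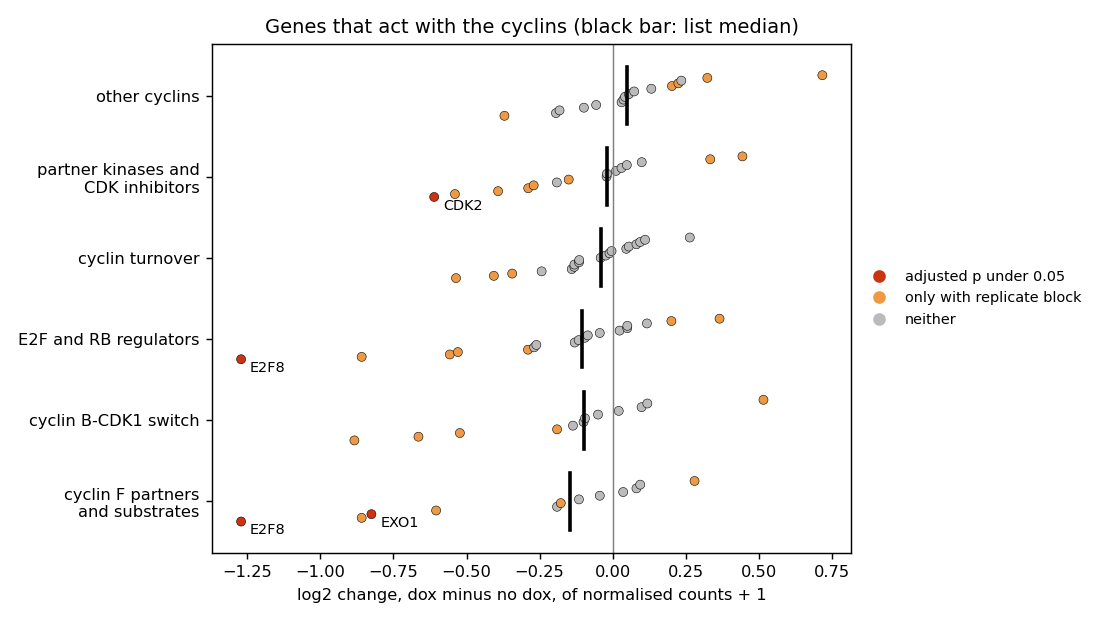
Log2 change, dox minus no dox, of each tested gene in the 6 lists (horizontal axis), with list medians as black bars. Red genes had an adjusted p under 0.05 without the replicate block and orange genes only with it, and the red ones, CDK2, E2F8 (in both lists that hold it) and EXO1, all lie below 0.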

How the data were processed

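Polyadenylated RNA of 6 libraries was analysed, 3 dox and 3 no dox, grouped by sample title. Per the submitters' processing notes the tools were bcl2fastq, Trimmomatic, TopHat and edgeR on hg19, without versions. No source used here gives the handling of multi-mapping reads or strand. The authors deposited normalised counts, a depth-equalised signal without a stated formula, and FPKM values. The authors' deposited table also holds CPM, a log2 fold change, a likelihood ratio score and p-values, per the file headers. CPM values were whole multiples of 1 read in all libraries (100%, tolerance 0.01), which gave the read totals, though dox replicates 1 and 2 and no dox replicate 2 hold few low values to fix that step. Per the file headers genes are Ensembl IDs, and symbols came from the authors' table for 13008 genes and a reference name table for 143 more.

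Groups were compared by a two-sided limma-trend fit of log2(normalised count + 1) for the 13153 genes reaching 10 normalised counts in 3 or more libraries, with Benjamini-Hochberg adjustment and 4 residual degrees of freedom, or 2 with the replicate block. Fold changes on this scale understate those of low genes. The cyclins and lists were chosen with earlier results of these data known. In each list the genes called were named, or up to 4 with the smallest p, with 13 partners or regulators named in any case. Replicate numbers come from the titles and were taken to pair the libraries because all correlations of deviations exceeded 0.1. The first principal component held 41.9% of the variance and separated the numbers. Alternatives were other pseudocounts (0.25 and 5), filters (none, or 50), log2(FPKM + 0.1), TMM and median-of-ratios scaling, the block, leaving out libraries, and edgeR's quasi-likelihood test and DESeq2 on the recovered reads. The fit was also run on simulated data, but the outcome is not given here and nothing is concluded from it. Protein sequences were not used here. Versions were DESeq2 1.42.0, edgeR 4.0.16 and limma 3.58.1 under R 4.3.3, and Python 3.11.15 with matplotlib 3.10.9.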

Additional observations from a re-analysis of the deposited data

How the results depend on the processing

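The 9 cyclin changes gave 153 values under 17 other settings. Of these, 144 moved by less than the spread between replicates, 1 moved by more and 8 changed sign. The other filters and the replicate block cannot move these values, so they always count among the 144. The yardstick was each gene's own spread, which was wide for some. CCND2, at 0.15 in the main fit, counted among the 144 at 0.71 without no dox replicate 1. Leaving out 1 library moved CCNB1 between -0.030 and 0.16, CCND1 between -0.28 and 0.081 and CCND2 between -0.59 and 0.71. Without replicate 1 of both groups CCND2 stood at -0.029. The other 6 cyclins kept their sign in these settings. The CCND3 difference was as small as -0.0050 without no dox replicate 1, and CCNE1 lay between 0.44 and 0.89 with 1 library left out. Leaving out 1 library breaks a pair in the fit without the block, so such values also carry differences between replicate numbers. Without replicate 1 of both groups CCNE1 stood at 0.66 and CCND3 at -0.11. From log2(FPKM + 0.1), the change of CCNE2 minus that of CCNE1 was -1.20. The added 0.1 shrinks differences at levels as low as the 0.390 FPKM of CCNE1 in no dox replicate 2. With 1 library left out, the change of CCNE2 minus that of CCNE1 was between -1.54 and -1.23. That of CCNB2 minus CCNB1 was 0.39 with both edgeR and DESeq2, and between 0.29 and 0.46 with 1 library left out.

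Over all genes 71 changed, 42 higher and 29 lower. The count was 2965 (1338 higher, 1627 lower) with the replicate block, 522 (218 and 304) with DESeq2, 67 (42 and 25) with edgeR, 31 (26 and 5) from FPKM and 44 (11 lower) without replicate 1 of both groups. Leaving out 1 library gave 3 to 21 genes, 3 to 16 higher and 0 to 5 lower. Of the genes in the 6 lists 3 were called, all lower, and 3 with edgeR too. With the replicate block 32 were called (10 higher, 22 lower), with DESeq2 18 (3 and 15), and 0 from FPKM, without replicate 1 of both groups and without any 1 library. Where 0 list genes were called, 1634 of all genes had an unadjusted limma p under 0.05 from FPKM, 2015 without replicate 1 of both groups and 1224 to 1702 without 1 library. The count was 1710 with all libraries, 1661 with edgeR and 1612 with DESeq2. The order of levels kept 5 of 9 cyclins in place in dox and 2 of 9 in no dox with transcript lengths. The cause of these differences was not tested. Reads limit CCNE1 and CCND2 most, with 54 and 87 in the shallowest library.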
